A study of Homo sapiens with 20 samples.

Results

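The genes described here are 9 targets of NRF2, the transcription factor that turns on the antioxidant and detoxification programme of the cell. They are *NQO1*, *GCLM*, *GCLC*, *TXNRD1*, *SRXN1*, *HMOX1*, *AKR1C1*, *AKR1B10* and *OSGIN1*, chosen by symbol as widely used NRF2 targets. All 9 were found, each under 1 Ensembl identifier, among the 58233 genes counted. They were compared between A549, a lung cancer line known to carry a *KEAP1* mutation, and 3 other lung cancer lines, and then between *ADAR* KO and control cells and between IFN-β-treated and vehicle-treated cells.

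RNA-seq was performed on 20 libraries from 4 human lung cancer lines that carried Cas9 and an sgRNA against *GFP*, as control, or against *ADAR*. *ADAR* encodes ADAR1, the enzyme that edits adenosine to inosine in double-stranded RNA. HCC366 (labelled adenosquamous carcinoma), NCI-H1650 (adenocarcinoma) and NCI-H196 (variant small cell lung cancer) are ADAR1-dependent lines, and their RNA was taken without treatment 5 days after transduction. A549 (adenocarcinoma) cells of both genotypes were kept for 24 h with vehicle or with IFN-β at 10 ng/mL. All cells, controls included, expressed Cas9 and were infected by lentivirus, and a KO population is a mixture of edited and unedited cells, not a clone. Each condition had 2 libraries, 1 for each of 2 sgRNAs (sg1 and sg2). Replication is therefore between sgRNAs (n = 2 per condition), and p values do not measure repeats of the whole experiment. Each SE below comes from the fitted model, which shares its estimate of the spread over the libraries of a fit and over genes. An SE can therefore be much smaller than the gap between the 2 sgRNAs of a gene.

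NRF2 is encoded by *NFE2L2* and is controlled mainly after translation. KEAP1 binds NRF2 and, with the ubiquitin ligase scaffold CUL3, marks it for degradation. Oxidants and electrophiles modify KEAP1, and mutations can inactivate it, so that NRF2 accumulates, pairs with a small MAF protein (MAFF, MAFG or MAFK) and binds antioxidant response elements in its target genes. BACH1 competes for the same elements and represses several of them, *HMOX1* above all. Lung tumours often use this switch, and A549 is a standard model of constant NRF2 activity. The counts do not show the *KEAP1* mutation, and a difference between A549 and the other lines cannot be told apart from any other difference between these lines.

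*GCLC* (chromosome 6, 53362139 to 53481768, minus strand, GRCh37) and *GCLM* (chromosome 1, 94350755 to 94375012, minus strand) encode the catalytic and modifier subunits of glutamate-cysteine ligase, which limits glutathione synthesis. *TXNRD1* (chromosome 12, 104609557 to 104744085, plus strand) encodes thioredoxin reductase, and *SRXN1* (chromosome 20, 627259 to 633844, minus strand) encodes sulfiredoxin, which repairs over-oxidised peroxiredoxins. *NQO1* (chromosome 16, 69740899 to 69760571, minus strand) reduces quinones. *AKR1C1* (chromosome 10, 5005445 to 5025475, plus strand) and *AKR1B10* (chromosome 7, 134212319 to 134226164, plus strand) encode aldo-keto reductases that reduce steroids, aldehydes and ketones. *HMOX1* (chromosome 22, 35776354 to 35790207, plus strand) breaks down haem. *OSGIN1* (chromosome 16, 83964916 to 83999937, plus strand) encodes an oxidative stress-induced growth inhibitor.

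The antioxidant response element was searched as TGACNNNGCA on both strands of the 1000 bases before the start of each canonical transcript in GENCODE mapped to GRCh37. It was found for 3 of the 9 genes, against 1852 of 19894 protein-coding genes (9.309%). These matches are shown because they are the letters that NRF2 with a small MAF protein is known to read. They are printed 5′ to 3′ with the match in capitals.
NQO1, chr16:69760901-69760926, minus strand: agtcacagTGACTCAGCAgaatctga
GCLC, chr6:53410753-53410778, plus strand: atatgtgtTGACAGAGCAatgacctg
GCLM, chr1:94375004-94375029, plus strand: gaagacaaTGACTAAGCAgaaatcgt
The *NQO1* match lies 455 to 446 bases before the start and reads in the direction of the gene. It also holds TGANTCA, the core that AP-1 factors read. Its printed stretch, match and flanks together, overlaps an exon of the divergent transcript *NQO1-DT*. The *GCLC* match lies 871 to 862 bases before the start on the opposite strand, in an intron of longer *GCLC* transcripts. The *GCLM* match lies 35 to 26 bases before the start on the opposite strand. Its printed stretch, match and flanks together, overlaps an exon of another *GCLM* transcript. The other 6 genes had no match in this window. A match is a description of the sequence and not evidence of binding.

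The libraries held between 62679 and 19520189 reads on genes, with a median of 6411279. NCI-H196 GFP sg2 was the shallowest, and the A549 libraries held at least 7381566. In HCC366 ADAR sg2, 85.6% of alignments were not unique, against 22.5% to 59.1% in the other libraries. For the comparisons in NCI-H196, in HCC366 and across these lines, calls or values without these libraries are given beside the main results. In each line and treatment, *ADAR* itself was lower with either *ADAR* sgRNA than with either *GFP* sgRNA. The log2 fold change of *ADAR* was between −1.29 (NCI-H1650) and −0.41 (NCI-H196), and it missed the threshold in HCC366 (−0.84, SE 0.31, adjusted p = 0.208 by edgeR). Among the markers of the labelled tumour types, the keratins *KRT8* and *KRT18* had means of 889 CPM or more in the untreated or vehicle-treated controls of A549, HCC366 and NCI-H1650 and of 21.4 to 30.7 CPM in NCI-H196. The epithelial adhesion genes *EPCAM* and *CDH1* had means of 97.8 and 722 CPM in NCI-H1650 controls, of 0.364 and 36.4 CPM in A549, of 1.29 and 8.53 CPM in HCC366 and of 0.0971 CPM each in NCI-H196. The neuroendocrine regulators *NEUROD1* and *INSM1* were at 0 CPM in all NCI-H196 libraries, and the squamous markers *KRT5*, *KRT6A* and *DSG3* were at 1.71 CPM or less in HCC366, where *TP63* was at 0.715 to 4.08 CPM. *KRT6A* and *DSG3* were instead at means of 63.1 and 109 CPM in the controls of NCI-H1650. In NCI-H196 *TP63* was at 13.7 CPM in GFP sg1 and at 41.8 CPM, from 4 reads, in the shallow GFP sg2. *KRT5*, *KRT6A* and *DSG3* were at 0.0971 CPM or less in all NCI-H196 libraries. The lung lineage markers *NKX2-1*, *SFTPB* and *NAPSA* were at 1.28 CPM or less in vehicle-treated A549 controls and at 1.05 CPM or less in NCI-H1650 controls. The neuroendocrine marker *CHGA* was at 15.2 and 11.3 CPM in NCI-H1650 controls. The markers therefore did not all follow the labelled tumour types, and the lines are called by their names below.

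All 9 NRF2 target genes were higher in A549 than in the mean of the other lines in control cells (edgeR quasi-likelihood test, Benjamini-Hochberg adjusted p under the 0.05 threshold for each). The same count was reached against HCC366, NCI-H1650 and NCI-H196 taken singly. The lines differed widely, so that 54.9% of 19523 genes tested passed against the mean of the other lines, 50.8% against HCC366, 53.8% against NCI-H1650 and 57.8% against NCI-H196. The median log2 difference of the 9 genes was 2.24, against −0.03 over all genes tested, and it is the same with *AKR1B10* set at its lower bound given below. For each of the 9 genes, both A549 control libraries lay above all 6 control libraries of the other lines, an order that 20.7% of all genes tested showed. These contrasts share the A549 libraries and are not independent of each other. Levels are given as TMM-scaled CPM, read counts relative to library size, over all 20 libraries, which compare a gene between libraries but not 2 genes with each other.

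**Figure D1:**
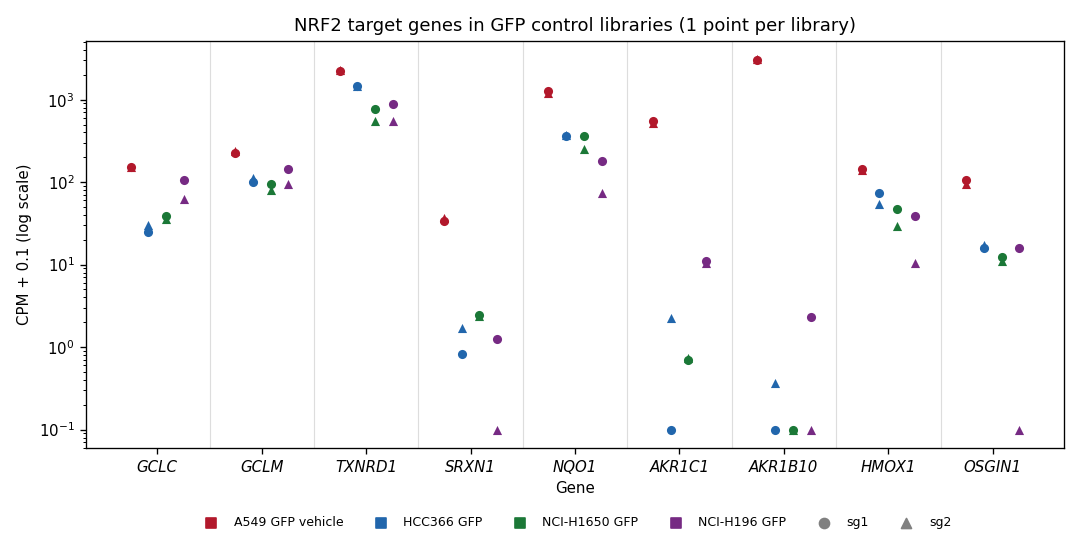
Levels of the 9 NRF2 target genes in the GFP control libraries, as CPM + 0.1 on a log scale. Each point is 1 library (circle sg1, triangle sg2) and colours mark the lines. Both A549 points lie above the 6 other points for each gene, with the widest gaps for *AKR1B10* and *AKR1C1*.

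The widest differences were in the aldo-keto reductases. *AKR1B10* was at 3065 and 3103 CPM in A549 control cells. The same gene had 0 reads in both NCI-H1650 control libraries, 0 and 1 read in HCC366, and 23 and 0 reads in NCI-H196. Against the floor of 3 reads over the 2 NCI-H1650 libraries, *AKR1B10* was at least 10148-fold higher in A549. Against HCC366, where the 2 libraries held 1 read, the ratio was 15866, with an exact 95% counting interval of 2848 to 626685. *AKR1C1* was at 552 and 516 CPM in A549, and no control library of another line exceeded 11.1 CPM. The log2 difference of *AKR1C1* was 5.59 (SE 0.33) against NCI-H196 and 9.73 (SE 0.39) against NCI-H1650, where 6 reads were counted in all. *AKR1C1* shares 7.914% of its 150-base stretches with its near copy *AKR1C2*, so that the split of reads between these paralogs is uncertain. *NQO1* was at 1276 and 1222 CPM in A549. In the other lines *NQO1* reached at most 372 CPM, in HCC366 GFP sg2, and the log2 difference from the mean of the lines was 2.24 (SE 0.17).

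The thioredoxin arm differed unequally. *SRXN1* was at 33.7 and 36.4 CPM in A549 and at 2.37 CPM or less in the other control libraries, with a log2 difference from the mean of the other lines of 4.50 (SE 0.24). *TXNRD1* was at 2230 and 2289 CPM in A549, against 1465 and 1449 CPM in HCC366, 765 and 556 CPM in NCI-H1650 and 886 and 544 CPM in NCI-H196. *TXNRD1* therefore had one of the smaller differences, 0.63 (SE 0.20) against HCC366 and 1.77 (SE 0.20) against NCI-H1650. Without HCC366 GFP sg2, the *TXNRD1* difference from HCC366 was 0.67 and missed the threshold (adjusted p = 0.0506 by edgeR). The counts of *SRXN1* are uncertain in level, since 90.16% of its 150-base stretches also lie in an annotated readthrough transcript on the same strand, and how such reads were assigned is not given in the sources used here.

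Among the glutathione genes, *GCLC* was at 152 and 154 CPM in A549 and stood closest in NCI-H196, at 106 and 62.8 CPM. The log2 difference of *GCLC* was 0.60 (SE 0.20) against NCI-H196 and 2.44 (SE 0.20) against HCC366, where it was at 25.02 and 30.3 CPM. *GCLM*, its partner subunit, was at 228 and 241 CPM in A549 and at 146 and 94.1 CPM in NCI-H196. The differences of *GCLM* ran from 0.76 (SE 0.20) against NCI-H196 to 1.41 (SE 0.18) against NCI-H1650. NCI-H196 GFP sg2 held only 6 reads of *GCLC* and 9 of *GCLM*. Without that library all 9 genes still passed against NCI-H196, with 0.54 for *GCLC* and 0.68 for *GCLM*. Without NCI-H196 GFP sg1, *GCLC* (1.30, adjusted p = 0.0976 by edgeR) and *SRXN1* missed the threshold.

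*HMOX1* was at 144 and 140.4 CPM in A549, and no other control library exceeded 74.3 CPM. Its log2 difference was 1.18 (SE 0.21) against HCC366 and 1.94 (SE 0.25) against NCI-H196. *OSGIN1* was at 108 and 94.1 CPM in A549 and at 17.1 CPM or less elsewhere, a log2 difference from the mean of the other lines of 2.80 (SE 0.19). In NCI-H196 GFP sg2 no read of *OSGIN1* and 1 read of *HMOX1* were counted.

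A wider list of 32 further NRF2 targets gave the same direction, with 31 higher and 0 lower against the mean of the other lines (median log2 difference 3.12, also with the genes that had no read in another line set at their lower bounds). In this comparison 54.9% of all genes tested passed. *CBR3*, a carbonyl reductase, was the exception, at 0.99 with an adjusted p of 0.0726 by edgeR, and at −0.91 against NCI-H196. The largest differences were in *AKR1C2* and *AKR1C3*, which reduce steroids, in *UGT1A6*, which conjugates glucuronic acid to xenobiotics, and in *ALDH3A1*, an aldehyde dehydrogenase. *AKR1C2* was at a mean of 1618 CPM in A549 control cells and at means of 1.02 CPM or less in the control cells of the other lines. *UGT1A6* was at 47.5 CPM in A549 and had no read in the control libraries of the other 3 lines, which made it at least 83.2-fold higher than in HCC366.

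The mRNA of NRF2 itself did not pass the test between A549 and the other lines. *NFE2L2* was at 103 and 109 CPM in A549 control cells and between 95.8 and 139.5 CPM in the other 6 control libraries, and the log2 difference from the mean of the other lines was −0.17 (SE 0.18, adjusted p = 0.437 by edgeR). *KEAP1* was 0.98 (SE 0.16) higher in A549 and *BACH1* was 1.19 lower (log2 difference −1.19, SE 0.17). *SQSTM1*, whose protein p62 carries KEAP1 to autophagy and which is itself an NRF2 target, was 1.35 (SE 0.20) higher. *CUL3* was 1.12 (SE 0.17) higher, *MAFK* 0.97 (SE 0.22) and *MAFG* 0.42 (SE 0.17, adjusted p = 0.0353). *MAFF* was lower in A549 (log2 difference −3.34, SE 0.32), at a mean of 6.32 CPM against 46.2 to 68.5 CPM in the other lines. Over the 20 libraries, the non-member genes whose log2 CPM followed the mean of the 9 genes most closely were *AKR1C2* (Pearson r = 0.992), *CNTN1* (0.991), *FTL* (0.990), *AKR1B1* (0.989) and *PGD* (0.987), of 19514 genes ranked. The 20 points fall into 4 lines, so these values mainly describe the step between A549 and the other lines.

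In the ADAR1-dependent lines, *ADAR* KO changed 0 of the 6 genes tested in HCC366, 2 of 7 in NCI-H1650 and 3 of 8 in NCI-H196, not all in one direction. *NQO1* fell by 0.34 in NCI-H1650 and by 0.44 in NCI-H196 on the log2 scale, *GCLM* fell in NCI-H1650, *TXNRD1* fell in NCI-H196, and *HMOX1* rose in NCI-H196. *HMOX1* and *OSGIN1* also rose over the 3 lines in 1 fit. Values of these effects are CPM scaled within each line, and a lower level in a population cannot tell fewer expressing cells from less RNA per cell.

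In HCC366, 0 of the 6 genes tested passed the threshold by edgeR (1.25% of all 11135 genes tested passed), and 2 were at an unadjusted p under 0.05. DESeq2 called 1, *OSGIN1*. *SRXN1*, *AKR1C1* and *AKR1B10* were removed by the filter on low counts. *OSGIN1* was at 17.04 and 18.3 CPM with *GFP* sgRNAs and at 49.9 and 118 CPM with *ADAR* sgRNAs. The 2 groups did not overlap, and the log2 fold change was 2.24 (SE 0.47, adjusted p = 0.0633). *HMOX1* was at 80.6 and 58.2 CPM against 128 and 173 CPM, a log2 fold change of 1.13 (SE 0.36, adjusted p = 0.168). For both genes HCC366 ADAR sg2, the library with 85.6% of alignments not unique, lay further from the controls than sg1 did, and the part of that share in the result was not tested. Without this library, *OSGIN1* was at 1.49 and *HMOX1* at 0.95. *NQO1* was at 397 and 398 CPM against 331 and 197 CPM (log2 fold change −0.59, SE 0.34, adjusted p = 0.382).

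In NCI-H1650, 2 of 7 genes passed, both lower, while 8.6% of 14530 genes tested passed. *GCLM* was at 106 and 92.0 CPM with *GFP* sgRNAs and at 68.7 and 79.9 CPM with *ADAR* sgRNAs (log2 fold change −0.42, SE 0.12, adjusted p = 0.0160). *NQO1* was at 408 and 292 CPM against 290 and 264 CPM (−0.34, SE 0.11, adjusted p = 0.0465), so that control sg2 and KO sg1 nearly met. DESeq2 called neither. Both calls were lost without GFP sg1, where *NQO1* was at −0.06 (adjusted p = 0.906 by edgeR) and *GCLM* at −0.30 (adjusted p = 0.399). The *GCLM* call was also lost without ADAR sg1 (−0.32, adjusted p = 0.147) and that of *NQO1* without ADAR sg2 (−0.28, adjusted p = 0.171). *OSGIN1*, at 13.9 and 12.4 CPM against 19.5 and 18.6 CPM, missed the threshold (0.53, SE 0.20, adjusted p = 0.0842).

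In NCI-H196, 3 of 8 genes passed, while 17.8% of 14094 genes tested passed. *NQO1* was at 208 and 103 CPM with *GFP* sgRNAs and at 143 and 153 CPM with *ADAR* sgRNAs (−0.44, SE 0.10, adjusted p = 0.000310). *TXNRD1* was at 1018 and 762.2 CPM against 717 and 776 CPM (−0.39, SE 0.11, adjusted p = 0.00408). *HMOX1* was at 44.3 and 14.7 CPM against 58.9 and 63.0 CPM (0.50, SE 0.15, adjusted p = 0.00559). For *NQO1* and *TXNRD1* the groups overlapped. The lower control was GFP sg2, which held 7 reads of *NQO1*, so the calls rest on the deep control GFP sg1. Without GFP sg2, *NQO1* was at −0.47 and *GCLC* at −0.30. Without GFP sg1 the sign of *NQO1* turned (0.56, adjusted p = 0.711), *TXNRD1* was at −0.01 and *HMOX1* at 2.09, and these 3 calls were lost, as they were without either KO library. DESeq2 gave an adjusted p to *NQO1*, *GCLM* and *TXNRD1* only, 0.998 for each.

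Across the 3 lines, 2 of 8 genes passed, both higher, while 5.3% of 16538 genes tested passed. *OSGIN1* rose by 1.05 (SE 0.28, adjusted p = 0.0380 by edgeR) and *HMOX1* rose by 0.63 (SE 0.18, adjusted p = 0.0477). Both had positive values in each line. With 1 library left out at a time, the *HMOX1* call was lost in 10 of 12 fits and that of *OSGIN1* in 5 of 12. Both were lost without either HCC366 control library, with values from 0.83 to 0.88 for *OSGIN1* and from 0.49 to 0.61 for *HMOX1*. Without both the shallow NCI-H196 control and HCC366 ADAR sg2, *NQO1* was at −0.39. In a test of the difference between lines, the KO effect on *OSGIN1* differed among the 4 lines (adjusted p = 0.00110 by edgeR), with 4.02% of 19523 genes tested passing. A549 entered this test with its vehicle-treated cells and the other lines untreated, so line and handling cannot be told apart. *OSGIN1* was the only 1 of the 9 genes past that threshold. The adjusted p was 0.110 for *HMOX1* and 0.474 for *NQO1*.

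**Figure D2:**
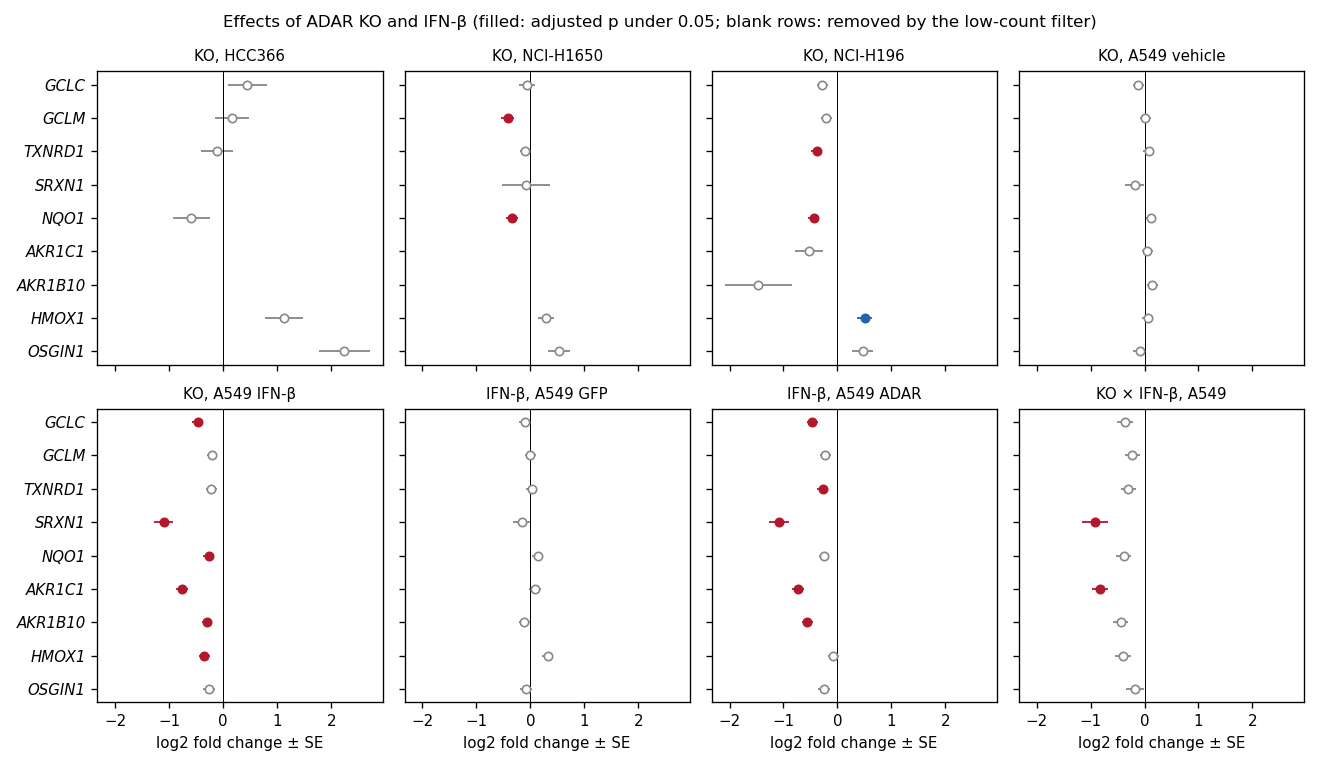
Log2 fold changes (± SE) of the 9 genes for *ADAR* KO in each line, for IFN-β in A549 and for their interaction. Filled points passed an adjusted p of 0.05 (red lower, blue higher) and open points did not. The open *OSGIN1* point in HCC366 (2.24) lies furthest right, and all 9 points of KO in IFN-β-treated A549 lie left of 0.

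In vehicle-treated A549 cells, *ADAR* KO changed none of the 9 genes past the threshold, and none was at an unadjusted p under 0.05. DESeq2 called none either. In all, 0.123% of 15449 genes tested passed. The log2 fold changes lay between −0.18 (*SRXN1*, SE 0.17) and 0.14 (*AKR1B10*, SE 0.10). IFN-β alone, in cells with *GFP* sgRNAs, also moved none past the threshold by edgeR (5.7% of genes tested passed). *HMOX1* came closest, at 119 and 112 CPM with vehicle and at 142 and 148 CPM with IFN-β (0.33, SE 0.10, adjusted p = 0.0563), and was the 1 gene at an unadjusted p under 0.05. DESeq2 called it (adjusted p = 0.0462).

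With *ADAR* KO and IFN-β together, 6 of the 9 genes fell relative to IFN-β-treated control cells, none rose, and all 9 values were negative, with a median log2 fold change of −0.30 against −0.01 over all genes tested. Many genes changed in this comparison, and 17% of all genes tested passed. *SRXN1* was at 21.2 and 29.6 CPM in IFN-β-treated control cells and at 12.3 and 11.6 CPM in IFN-β-treated KO cells, a log2 fold change of −1.10 (SE 0.18, adjusted p = 3.26e-05). *AKR1C1* was at 426 and 496 CPM against 286 and 257 CPM (−0.76, SE 0.10, adjusted p = 3.05e-06). *GCLC* was at 113 and 118 CPM against 87.1 and 79.7 CPM (−0.47, SE 0.10, adjusted p = 0.00160). The falls in *HMOX1* (−0.35, SE 0.10), *AKR1B10* (−0.30, SE 0.10) and *NQO1* (−0.27, SE 0.10) were smaller. *GCLM* (−0.21), *TXNRD1* (−0.22) and *OSGIN1* (−0.26) missed the threshold, with adjusted p values from 0.122 to 0.162. *SRXN1* and *AKR1C1* passed under each of 9 alternative settings. The count of genes was 3 without GFP IFN-β sg2 and 2 without ADAR IFN-β sg2.

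**Figure D3:**
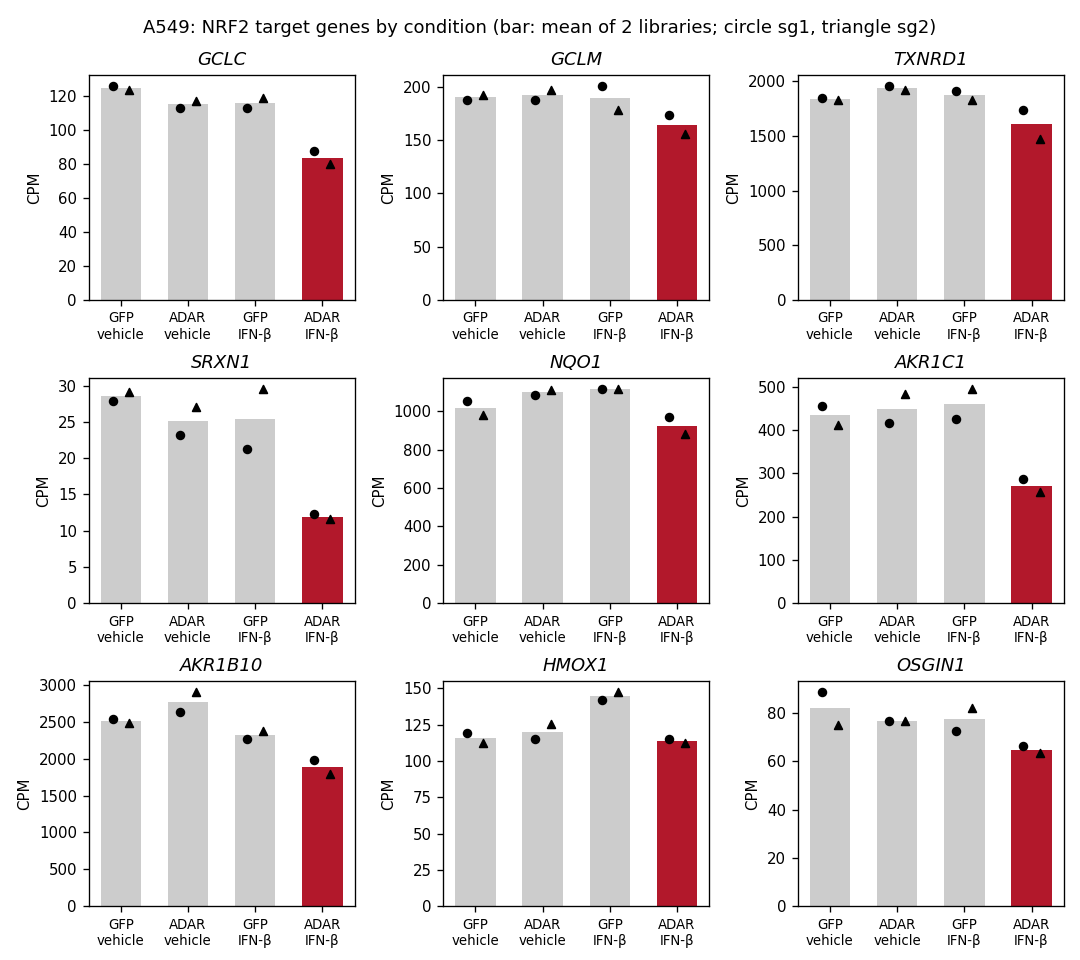
Levels of the 9 genes in the 4 A549 conditions, in CPM scaled within A549. Bars are means of 2 libraries and points are the libraries. The red bar, *ADAR* with IFN-β, is the lowest of the 4 for each gene, with both points below all 6 others for 8 of 9 genes.

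Against vehicle-treated KO cells, IFN-β lowered 5 of the 9 genes in KO cells, while 24.5% of genes tested passed. These were *SRXN1* (−1.08, SE 0.18), *AKR1C1* (−0.73, SE 0.10), *AKR1B10* (−0.55, SE 0.10), *GCLC* (−0.46, SE 0.10) and *TXNRD1* (−0.27, SE 0.10). *AKR1B10*, for example, was at 2636 and 2904 CPM with vehicle and at 1984 and 1787 CPM with IFN-β. *HMOX1* was at 115 and 125 CPM against 116 and 113 CPM (−0.08, SE 0.10). *SRXN1*, *AKR1C1*, *AKR1B10* and *GCLC* passed under each of 10 alternative settings. This comparison and the one before it share the 2 IFN-β-treated KO libraries, so the 2 lists are not independent. Both of those libraries lay below the other 6 A549 libraries for 8 of the 9 genes, an order that 15% of all genes tested showed. *HMOX1* was the exception, since GFP vehicle sg2 was at 112 CPM and ADAR IFN-β sg1 at 116 CPM.

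The interaction test asked whether the KO effect differed with IFN-β. It passed for 2 of the 9 genes, with 5.05% of genes tested passing, and all 9 values were negative. *AKR1C1* had an interaction of −0.82 (SE 0.15, adjusted p = 0.000557) and *SRXN1* of −0.92 (SE 0.25, adjusted p = 0.0234). *AKR1B10* had −0.44 (SE 0.14, adjusted p = 0.0588). The *AKR1C1* interaction was kept under 13 of 14 alternative settings and that of *SRXN1* under 8 of 14. Even at their lowest, these genes stayed high against the other lines. Over all 20 libraries, every A549 library lay above every library of the other lines for 6 of the 9 genes, an order that 11.2% of genes tested showed. The exceptions were *GCLC*, whose lowest A549 level of 94.2 CPM lay under the 106 CPM of NCI-H196 GFP sg1, and *HMOX1* and *OSGIN1*, whose lowest A549 levels of 133 and 74.9 CPM lay under the 152 and 104 CPM of HCC366 ADAR sg2.

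A wider list of 32 further targets was read in the same A549 comparisons. Of all genes tested, 17% passed for KO with IFN-β and 0.123% for KO with vehicle. For IFN-β, 24.5% passed in KO cells and 5.7% in control cells, and 5.05% passed for the interaction. In IFN-β-treated A549, *ADAR* KO lowered 19 of 32 and raised 0, with a median log2 fold change of −0.35. The largest falls were in *GPX2*, a glutathione peroxidase (−0.98, SE 0.21), in *NR0B1*, an orphan nuclear receptor (−0.75, SE 0.20), in *AKR1C3* (−0.71, SE 0.10) and in *ALDH3A1* (−0.62, SE 0.13). *GPX2* was also the 1 gene of the list past the threshold for KO in vehicle-treated cells (−1.07, SE 0.22). IFN-β lowered 14 of 32 in KO cells and raised 0, led by *AKR1C3* (−0.89, SE 0.10) and *AKR1C2* (−0.64, SE 0.10). In control cells IFN-β raised 3, *CBR1* (0.40), *FTH1* (0.37), which encodes ferritin heavy chain, and *ABCC1* (0.33), and lowered *SLC7A11* (−0.49), the cystine transporter. The interaction passed for 7 of 32, all negative, with the largest for *FTH1* (−0.76, SE 0.14) and *AKR1C3* (−0.74, SE 0.14). The count of 19 was 11 without GFP IFN-β sg2 and 4 without ADAR IFN-β sg2, and the count of 14 was 5 without ADAR IFN-β sg2 and 8 without either ADAR vehicle library.

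**Figure D4:**
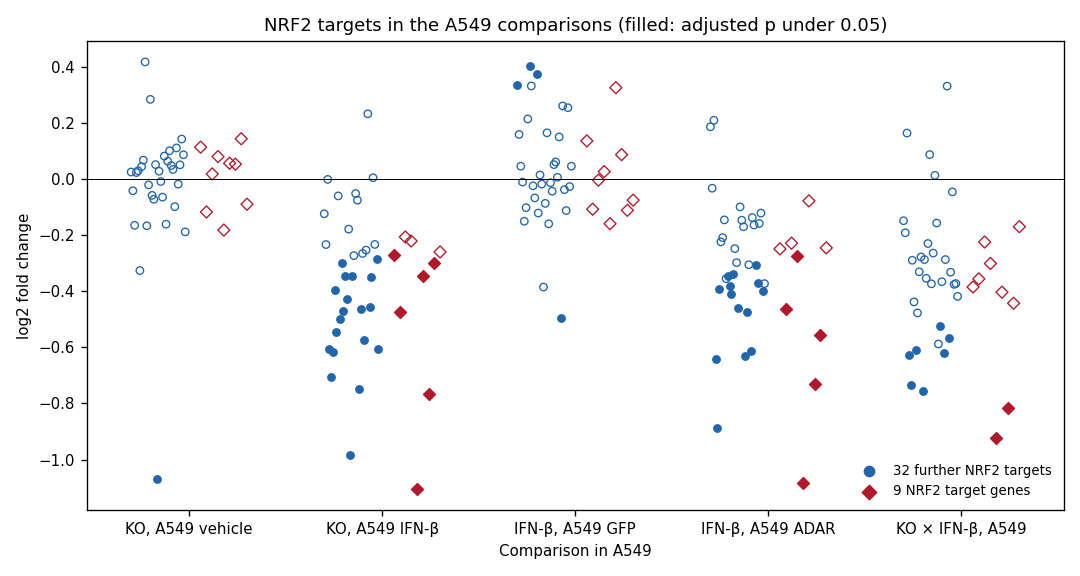
Log2 fold changes of the 9 genes (red diamonds) and of 32 further NRF2 targets (blue circles) in the A549 comparisons, 1 point per gene, filled where the adjusted p was under 0.05. The filled points for KO with IFN-β lie below 0 for 6 of the 9 genes and for 19 of the 32 others, whereas for KO with vehicle 1 point, *GPX2*, is filled.

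In the ADAR1-dependent lines the wider list gave fewer calls. In HCC366, where 1.25% of all genes tested passed, 1 of the 23 list genes tested rose, *ABCC2*, an efflux pump (2.07, SE 0.39). It was at 2.14 without HCC366 ADAR sg2 and kept its call, which was lost without either control library. In NCI-H1650, 8.6% of all genes tested passed, and 3 of 24 from the list fell. These were the glutathione transferase *MGST1* (−0.44), thioredoxin *TXN* (−0.36) and peroxiredoxin *PRDX1* (−0.34). In NCI-H196, 17.8% of all genes tested passed, and 6 of 27 from the list fell. The falls were led by *AKR1C3* (−0.61), *MGST1* (−0.59), *GSR* (−0.46), which encodes glutathione reductase, and *FTL* (−0.42). The 2 that rose there were *SLC7A11* (0.33) and *ABCC3* (0.30). The count of 8 was 0 by edgeR without the deep NCI-H196 control GFP sg1, where *MGST1* was at 1.25 and *GSR* at 0.73, and also without either KO library.

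The mRNA of NRF2 rose in IFN-β-treated KO cells, as did those of *MAFF* and *MAFK*. Levels of these genes are CPM over all 20 libraries. Over all genes tested, 17% passed for KO with IFN-β, 0.123% for KO with vehicle and 5.05% for the interaction. For IFN-β, 5.7% passed in control cells and 24.5% in KO cells. *NFE2L2* was at 127 and 97.5 CPM in IFN-β-treated control cells and at 206 and 274 CPM in IFN-β-treated KO cells (log2 fold change 1.15, SE 0.12, adjusted p = 4.60e-08). Its interaction was 1.22 (SE 0.18, adjusted p = 3.27e-05) and was kept under 14 of 14 alternative settings. *MAFF*, which has no activation domain of its own, was at 8.50 and 12.2 CPM against 58.2 and 85.9 CPM (2.82, SE 0.20), and *MAFK* rose by 0.61 (SE 0.13). *CUL3* fell by 0.45 on the log2 scale and *KEAP1* fell by 0.32 (SE 0.11, adjusted p = 0.0497). *BACH1* was at 0.38 (SE 0.15) and missed the threshold (adjusted p = 0.0805). In vehicle-treated cells none of the 10 system genes passed for KO by edgeR, none was at an unadjusted p under 0.05, and *NFE2L2* was at −0.07 (SE 0.13). IFN-β in control cells raised *MAFF* alone of the 10 (0.82, SE 0.25, adjusted p = 0.0475), a call lost without either sg2 library. In KO cells IFN-β raised *MAFF* (3.17, SE 0.22), *NFE2L2* (1.32, SE 0.13), *MAFK* (1.12, SE 0.13), *BACH1* (0.44, SE 0.15) and *NFE2L1* (0.31, SE 0.10). It lowered *CUL3* (−0.74, SE 0.11) and *KEAP1* (−0.34, SE 0.11). Beside *NFE2L2*, the interaction passed for *MAFF* (2.35, SE 0.34) and *MAFK* (0.73, SE 0.18). Protein was not measured, so these values say nothing of the amount of NRF2 in the nucleus.

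**Figure D5:**
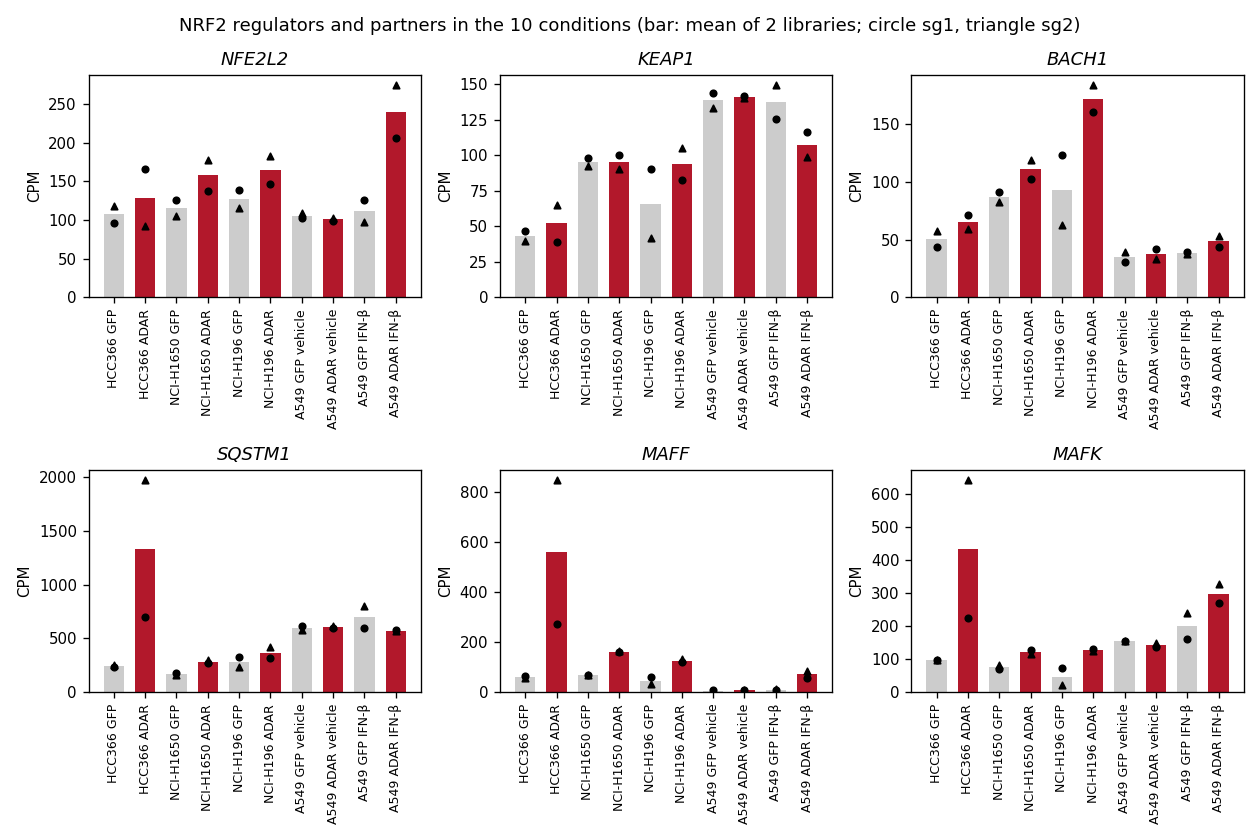
Levels of 6 genes of the NRF2 system in the 10 conditions, in CPM scaled over all 20 libraries. Bars are means of 2 libraries (red *ADAR*, grey *GFP*) and points are libraries. The *NFE2L2* mean is highest in A549 with *ADAR* sgRNAs and IFN-β (240.2 CPM), and HCC366 ADAR sg2 stands above all other libraries for *SQSTM1*, *MAFF* and *MAFK*.

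In the ADAR1-dependent lines, *MAFF* rose with *ADAR* KO in each line, by 3.30 (SE 0.54) in HCC366, by 1.23 (SE 0.11) in NCI-H1650 and by 1.103 (SE 0.11) in NCI-H196 on the log2 scale. Across the 3 lines *SQSTM1* (1.15, SE 0.30), *MAFK* (1.26, SE 0.26) and *MAFG* (0.86, SE 0.20) rose as well. Without both the shallow NCI-H196 control and HCC366 ADAR sg2 these values were 0.74, 0.81 and 0.59, with *MAFF* at 1.40, and all 4 calls were kept. *SQSTM1* was at 234 and 254 CPM with *GFP* sgRNAs in HCC366 and at 696 and 1972 CPM with *ADAR* sgRNAs (2.51, SE 0.49, adjusted p = 0.0497). The higher value came from HCC366 ADAR sg2, and without that library the *SQSTM1* fold change was 1.52 and that of *MAFF* was 2.23. *NFE2L2* rose in NCI-H1650 (0.43, SE 0.11) and in NCI-H196 (0.33, SE 0.10) and was at 0.28 (SE 0.37) in HCC366. In NCI-H1650 *SQSTM1* (0.71, SE 0.10), *MAFK* (0.66, SE 0.12) and *MAFG* (0.44, SE 0.12) rose, and *CUL3* fell (−0.40, SE 0.13, adjusted p = 0.0346). In NCI-H196 *MAFK* (0.82, SE 0.11), *BACH1* (0.55, SE 0.10), *MAFG* (0.54, SE 0.10) and *NFE2L1* (0.53, SE 0.11) rose. Of the 6 system genes called in NCI-H196, all were kept without GFP sg2, where *MAFF* was at 1.08, *MAFK* at 0.80, *BACH1* at 0.53 and *NFE2L2* at 0.32. Each was lost in 2 or 3 of the 4 fits that left out 1 library. For *BACH1* these were the fits without GFP sg1 (1.24, adjusted p = 0.414) and without either KO library. The number of system genes called then ranged from 0 to 8 in NCI-H196, from 0 to 8 in HCC366 and from 3 to 6 in NCI-H1650. The number of all genes called also ranged widely in these fits, as given at the end. The KO effect differed among the 4 lines for *SQSTM1*, *MAFF*, *MAFG* and *MAFK* by edgeR, with 4.02% of all genes tested passing. *KEAP1* did not pass in any of the 3 lines, with log2 fold changes from −0.02 to 0.33.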

How the data were processed

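The deposited files held whole-number read counts per gene, 1 file per library. Per the labels and the study's methods, the authors prepared stranded libraries after rRNA depletion (150-base reads), used STAR for alignment to hg19, and HTSeq for counting. Versions, the annotation release and the strand setting of the counting are not given in the sources used here. The 5 HTSeq summary lines were left out of library sizes. Symbols were matched to 55727 of 58233 Ensembl identifiers (97.41% of counts), and the sequences and coordinates come from GRCh37 with GENCODE annotation mapped to it.

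Counts were tested with edgeR 4.0.16 (R 4.3.3, limma 3.58.1) by its quasi-likelihood test, with TMM scaling, the default low-count filter by group and Benjamini-Hochberg adjustment over all genes tested (threshold 0.05). Levels of controls were compared in 1 fit over all 20 libraries, and KO and IFN-β effects in a fit within each line. Across the 3 dependent lines, line was a covariate. Groups came from the labels. No 2 libraries held identical values, and the 2 libraries of a condition differed by more than counting noise in each condition (chi-square per degree of freedom from 1.34 to 17.5). Reads are not independent molecules, so intervals and floors cover counting error only. The test was tried on simulated counts with known changes. Those counts had the same spread for all genes and no differences between lines, so they do not bear on the calls above. DESeq2 1.42.0 and the other alternatives are given at the end.

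All 9 genes are named in each comparison or summarised, *NFE2L2*, *KEAP1* and *BACH1* mainly with values, the other system genes when past the threshold (against the mean of the other lines, for KO, IFN-β or their interaction), up to 4 rises and 4 falls of the wider list, and the 5 genes most like the 9 in pattern. The 9 genes, the lists and the tests were chosen with earlier results of these data known.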

Additional observations from a re-analysis of the deposited data

Results flagged for a closer look

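Effects that differed between lines or between treatments are collected here. The KO effect differed among the 4 lines for *OSGIN1* (adjusted p = 0.0011 by edgeR), and it was past the threshold under each of 21 alternative settings. Among the genes of the NRF2 system, the KO effect differed among lines for *SQSTM1* (adjusted p = 0.000361), *MAFF* (0.00105), *MAFK* (0.00253) and *MAFG* (0.00656). In the wider list it differed for *ABCC2* (0.00237) and *GGT1* (0.045). HCC366 ADAR sg2, with 85.6% of its alignments not unique, is among the libraries behind these values, and the part of that share was not tested.

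The KO effect in A549 differed with IFN-β for *SRXN1* (interaction −0.92) and *AKR1C1* (−0.82). In the wider list the interaction passed for *FTH1* (−0.76), *AKR1C3* (−0.74), *AKR1C2* (−0.63), *PRDX1* (−0.62), *CBR1* (−0.61), *TALDO1* (−0.57) and *PGD* (−0.53). In the system it passed for *MAFF* (2.35), *NFE2L2* (1.22) and *MAFK* (0.73).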

How the results depend on the processing

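Counts of the 9 genes past the threshold are given here under other settings. For KO in HCC366 the count of 0 was 1 with DESeq2, 1 without the low-count filter, 1 with the replicate block and 3 in 1 fit over all 20 libraries. For KO in NCI-H1650 the count of 2 was 1 with DESeq2 size factors, 0 with DESeq2, 1 without the filter, 1 with the block and 0 in the 20-library fit. For KO in NCI-H196 the count of 3 was 0 with DESeq2, 0 with the block and 0 in the 20-library fit. For KO in IFN-β-treated A549 the count of 6 was 2 in the 20-library fit, for IFN-β in control cells the count of 0 was 1 with DESeq2, and for the interaction the count of 2 was 4 with DESeq2 and 0 in the 20-library fit. Across the 3 dependent lines the count of 2 was 0 with the block. Cause was not tested for any of these.

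*GFP* and *ADAR* libraries of the same number share only a number (correlations of deviations from −0.253 in HCC366 to 0.0368 in A549), so the block values above are given here alone. Within A549, a vehicle library and its IFN-β counterpart of the same target and number carry the same sgRNA (correlations −0.0592 and −0.00477). With a block by sgRNA, IFN-β gave 0 of the 9 genes in control cells, 4 in KO cells and 2 for the interaction. A crossed block in HCC366, chosen after seeing the data, gave 1 of the 9 genes and 960 genes in all. Leaving out both doubted libraries, also chosen after seeing the data, gave 3 across the dependent lines.

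Leaving out 1 library at a time gave 9 to 9 genes against the mean of the other lines, 8 to 9 against HCC366, 9 to 9 against NCI-H1650 and 7 to 9 against NCI-H196. The range was 1 to 3 for the difference among 4 lines, 0 to 3 for KO in HCC366, 1 to 2 in NCI-H1650, 0 to 4 in NCI-H196, 0 to 0 in vehicle-treated A549 and 2 to 7 in IFN-β-treated A549. It was 0 to 1 for IFN-β in control cells, 4 to 6 for IFN-β in KO cells, 1 to 5 for the interaction and 0 to 3 across the dependent lines. Over all genes tested the ranges were 5575 to 10794 against the mean of the other lines, 167 to 4637 for the difference among 4 lines, 9 to 6408 for KO in HCC366, 542 to 1110 in NCI-H1650, 41 to 3041 in NCI-H196, 3 to 17 in vehicle-treated and 689 to 3581 in IFN-β-treated A549. They were 517 to 1245 for IFN-β in control cells, 1774 to 3496 in KO cells, 253 to 1663 for the interaction and 328 to 1907 across the dependent lines. Where an arm kept 1 library, that library was assumed to vary like the others. Across the dependent lines both calls were also lost without NCI-H196 GFP sg2, NCI-H196 ADAR sg2 or NCI-H1650 GFP sg2. The *SRXN1* interaction was lost without GFP vehicle sg1 or sg2, GFP IFN-β sg2, ADAR vehicle sg2 or ADAR IFN-β sg2 (−0.96 to −0.65).

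Among effects past the threshold, signs reversed only for KO in NCI-H196. Without GFP sg1 the log2 fold changes were 0.56 for *NQO1*, 1.28 for *PGD*, 1.25 for *MGST1*, 0.73 for *GSR*, 0.53 for *FTL* and 0.00905 for *AKR1C3*. *PGD* was also at 0.0527 with DESeq2 and at 0.0330 with the block. The other ends of these ranges, when libraries were left out in turn, were −0.47 for *NQO1*, −0.34 for *PGD*, −0.62 for *MGST1*, −0.49 for *GSR* and −0.49 for *FTL*, all without GFP sg2, and −0.76 for *AKR1C3* without ADAR sg2.

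The number of all genes called in HCC366 (139) was 298 with DESeq2, 903 without the filter, 300 with the block and 3701 in the 20-library fit. In NCI-H1650 (1250) it was 412 with DESeq2 and 159 in the 20-library fit. In NCI-H196 (2513) it was 11 with DESeq2, 1552 without the filter, 115 with the block and 98 in the 20-library fit. In vehicle-treated A549 (19) it was 8 with DESeq2, 30 without the filter and 5 in the 20-library fit. The 20-library fit gave 1087 of 2622 for KO with IFN-β, 531 of 880 for IFN-β in control cells, 2067 of 3788 in KO cells and 164 of 780 for the interaction. Across the dependent lines (876) it was 1829 without the filter, 362 with the block and 1968 without both doubted libraries. Depth limits NCI-H196 GFP sg2 most, where 1 read is worth 15.95 CPM.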
